A study of Mus musculus with 6 samples.

Results

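Iron and heme handling in cells of digested joints was followed through 7 genes. They were taken by symbol from the 20394 genes of the count table, and each had 1 row. Hmox1 encodes heme oxygenase 1, which opens the heme ring and releases its iron. Slc40a1 encodes ferroportin, the exporter of cellular iron, and Slc11a1 encodes NRAMP1, a metal transporter of the phagosome membrane. Fth1 and Ftl1 encode the heavy and light chains of ferritin, the iron store. Tfrc encodes the transferrin receptor for iron uptake, and Cd163 the scavenger receptor for hemoglobin bound to haptoglobin.

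The cells came from C57BL/6 mice with antigen-induced arthritis (AIA), immunized with 10 μg methylated bovine serum albumin (mBSA) in complete Freund's adjuvant and given 100 μg mBSA into the knee on day 21. From day 21 the mice received PBS or 300 μg PEPITEM, a peptide derived from a 14-3-3 protein, by intraperitoneal injection, and synovium was taken 3 days after the challenge. The mice were male and were bought at 8 weeks of age. CD45+ cells were sorted from the digested joints, which the paper describes as synovial tissue. Their RNA was counted from the 3′ end, in 2 PBS and 4 PEPITEM samples, with no sample from an unchallenged joint. The deposited table pools 32953 cells whose barcodes carry a library number from 1 to 6, and the sources used here do not link these numbers to samples. PBS and PEPITEM were therefore not compared, no test was run, and the 6 libraries are of unknown treatment.

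Macrophages take up aged red cells and free hemoglobin, break down the heme and either store the iron in ferritin or export it through ferroportin. Inflammation shifts phagocytes toward holding iron, and dividing cells show the transferrin receptor to take iron up. The mRNAs of Slc40a1, Fth1, Ftl1 and Tfrc carry the iron-responsive element, a hairpin bound by iron regulatory proteins when iron is low: in the 5′ UTR it blocks translation of ferritin and ferroportin, and in the 3′ UTR it protects the Tfrc mRNA from decay.

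The elements are shown because they separate the storage and export genes from the uptake gene. Annotated UTRs (GENCODE vM21, GRCm38, the build of the files) were searched on the transcript strand for CNNNNNCAGTGN with all 5 letters on either side of the loop able to pair, G with T included. Such letters occurred in the 5′ UTR of 0.148% of 20899 genes and in the 3′ UTR of 0.614% of 21022 genes. Each sequence of 29 letters is printed 5′ to 3′ with the loop in capitals.
Slc40a1, 5′ UTR in exon 1, chr1:45925465-45925493, minus strand: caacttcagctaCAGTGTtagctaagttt
Fth1, 5′ UTR in exon 1, chr19:9982732-9982760, plus strand: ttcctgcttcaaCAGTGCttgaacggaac
Ftl1, 5′ UTR in exon 1, chr7:45459779-45459807, minus strand: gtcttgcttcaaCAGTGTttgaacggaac
Tfrc, 3′ UTR in exon 19, chr16:32631219-32631247, plus strand: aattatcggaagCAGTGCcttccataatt
Tfrc, 3′ UTR in exon 19, chr16:32631598-32631626, plus strand: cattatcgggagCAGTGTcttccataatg
Tfrc, 3′ UTR in exon 19, chr16:32631663-32631691, plus strand: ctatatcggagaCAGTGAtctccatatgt
Tfrc, 3′ UTR in exon 19, chr16:32631710-32631738, plus strand: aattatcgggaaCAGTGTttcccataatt
The ferritin chains share the 5 letters on either side of the loop, though not all letters further out, and the Tfrc matches differ from each other in the stem. The searched letters were not found in the annotated UTRs of Hmox1 (chr8:75093621-75100589, plus strand), Slc11a1 (chr1:74375195-74386062, plus strand) or Cd163 (chr6:124304656-124330527, plus strand).

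Cells were sorted into 28 classes by gates of marker genes that held none of the 7 genes, and a class name is short for cells that resemble that type by its gate. In all, 23171 cells had a class, 5765 passed gates of several lineages (median 25662 UMIs per cell, 33.0% of all UMIs), and the others passed no gate or a gate without a class. The 25 classes with at least 50 cells are compared. They include B precursors, progenitors and promyelocyte-type precursors. Which tissue of the digested joint the cells of any class came from was not tested. Ptprc, the gene of CD45, was detected in 79.5% to 100% of the cells of these classes except mast cells (63.0%) and fibroblasts (10.7%). Levels are given as CPM, the UMIs of a gene in a class scaled to 1e6 UMIs of that class, and the interval is the exact Poisson 95% interval. Shares of cells carry exact Clopper-Pearson 95% intervals, and both kinds cover counting error only. A CPM is a share of the RNA of the cells, so UMIs per cell are also given for some classes that differ in RNA content. The orders of the classes are by CPM and can differ per cell. Library values are given for libraries with at least 10 cells of the class. The libraries held 2919 to 9345 cells and 47273569 to 123367661 UMIs, and 138 barcode sequences occurred in more than 1 library.

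Cd163 was concentrated in resident macrophages. In resident Lyve1 macrophages (1355 cells with C1q genes, Lyve1 and at least 2 of Folr2, Timd4, Gas6, Mrc1 and Cbr2) it was at 483 CPM (interval 472 to 493), with a lowest library of 411, a median of 479 and a highest of 524 CPM. These cells are 3.60% of all UMIs and held 55.7% of the Cd163 UMIs. In Fxyd2 Aqp1 macrophages, 146 cells with C1q genes, Fxyd2 and Aqp1 and no Lyve1, it was at 204 CPM with libraries from 143 to 231. The library ranges of these 2 classes did not overlap, and neither overlapped the third class, type 2 dendritic cells, with 25.7 CPM and libraries from 12.5 to 37.1 CPM. Plasmacytoid dendritic cells followed at 14.3 CPM, and the remaining 21 classes lay below 3 CPM.

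Inflammatory macrophages, gated on C1q genes with at least 3 of Arg1, Spp1, Inhba, Thbs1, Vegfa and Clec4e and no Lyve1, Fxyd2 or Cxcl9, held nearly no Cd163. Their 605 cells had 16 Cd163 UMIs, or 1.42 CPM (interval 0.811 to 2.31). Classical monocytes were at 1.30 CPM and nonclassical monocytes at 0 UMIs in 97 cells. Cd163 was detected in 62.1% of resident macrophages (interval 59.4% to 64.7%), against 2.15% of inflammatory macrophages. T cells, which should lack the gene, had a UMI in 0.274% of cells (median 9148 UMIs per cell), a lower share than in the deeper inflammatory macrophages (median 17668 UMIs). Thinned to 2000 UMIs per cell the shares were 43.3%, 0.265% and 0.0264% in resident macrophages, inflammatory macrophages and T cells.

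Hmox1 had its highest level in the same cells, with more spread between libraries. Resident Lyve1 macrophages were at 644 CPM (interval 632 to 655), with libraries at 288, 601 and 801 CPM for the lowest, the median and the highest. The lowest value came from library 2, which held 34 of these cells. Fxyd2 Aqp1 macrophages were at 276 CPM, inflammatory macrophages at 162 CPM, and classical monocytes at 130 CPM. From the highest class down to mature neutrophils at 57.9 CPM, each neighboring pair of classes overlapped in its library ranges. Mature neutrophils, with libraries from 36.2 to 95.2 CPM, lay above immature neutrophils at 19.4 CPM and libraries from 7.53 to 24.6 CPM without overlap.

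Hmox1 was at most 9.30 CPM in the lymphoid classes, the level of small pre-B cells (libraries from 1.69 to 26.7 CPM). Cycling B precursors held 3.55 CPM and mature B cells 3.36 CPM. T cells held 1.75 CPM of Hmox1, NK cells 1.12 CPM and Pro-B cells 0.890 CPM from 3 UMIs. Fibroblasts were at 75.5 CPM, a value to which 1 cell gave 32.6% of the UMIs. In resident macrophages Hmox1 was seen in 78.5% of cells, against 1.83% of T cells. The resident class held 22.0% of all Hmox1 UMIs, and the cells that passed several gates, which enter no class, held 44.1% of them. Cd163 was detected in 66.1% of resident macrophages with Hmox1 and in 47.3% of those without, higher in 6 of 6 libraries. The cells with Hmox1 were also deeper (median 12639 against 9748 UMIs), and the part of depth in this difference was not tested.

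**Figure D1:**
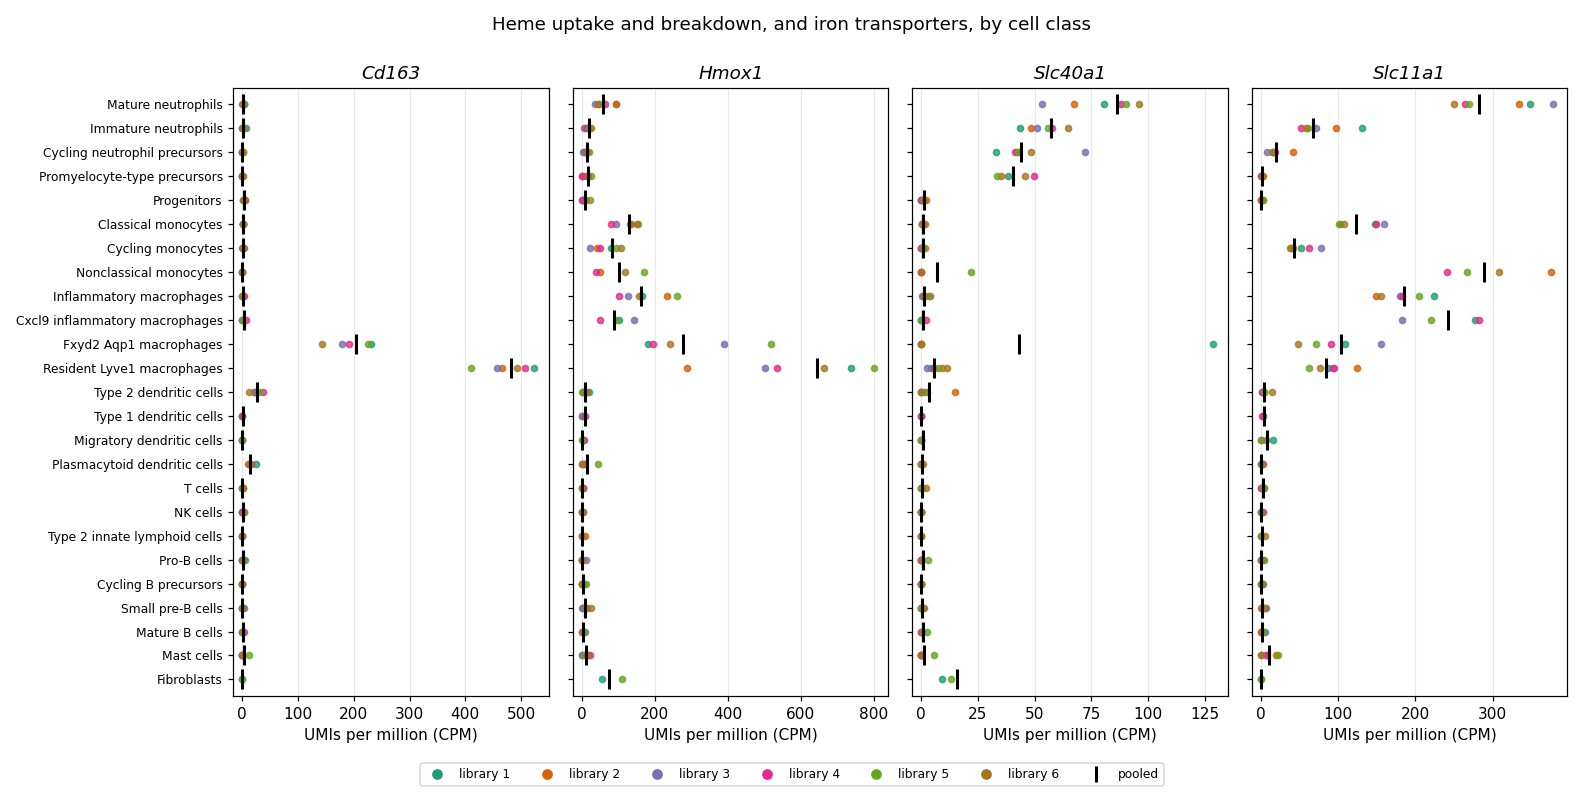
Levels of Cd163, Hmox1, Slc40a1 and Slc11a1 in CPM (x axes, linear) for 25 cell classes (y axis), with 1 point per library of at least 10 cells and a black bar for the pooled level. Cd163 is highest in the 2 macrophage classes at 483 and 204 CPM, while Slc40a1 lies between 40.5 and 86.4 CPM in the 4 neutrophil-lineage classes and the lone point at 129 CPM in Fxyd2 Aqp1 macrophages comes from 1 cell.

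Slc40a1, the iron exporter, followed another pattern: among the classes compared, its highest levels were in the neutrophil lineage and not in the macrophage classes. This order leaves out cells without a class. The cell with the most Slc40a1 UMIs (104) was one of them and held 57 UMIs of the C1q gene C1qa. Cells with many Slc40a1 UMIs are described below. Mature neutrophils were at 86.4 CPM (interval 82.5 to 90.5), with libraries at 53.1, 84.4 and 96.2 CPM for the lowest, the median and the highest. Immature neutrophils followed at 57.1 CPM, cycling neutrophil precursors at 44.2 CPM and promyelocyte-type precursors at 40.5 CPM. Neighbors in this order overlapped in their library ranges. Fibroblasts followed at 15.8 CPM from 18 UMIs, and their library range lay apart from that of promyelocyte-type precursors. Resident Lyve1 macrophages were at 5.82 CPM (interval 4.74 to 7.06) with libraries from 2.56 to 11.6 CPM, inflammatory macrophages at 1.33 CPM and classical monocytes at 0.584 CPM.

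The lowest library of any of the 4 neutrophil-lineage classes, at 33.1 CPM, was above the highest library of resident macrophages. The lymphoid classes gave the background: T cells had Slc40a1 in 0.548% of cells and mature B cells in 0.236%. Cycling B precursors had no UMI in 497 cells, for which a fixed limit of 3 counts was allowed. By share, 28.5% of mature neutrophils (median 4548 UMIs per cell) and 43.1% of immature neutrophils (median 10983 UMIs) had a UMI. At 2000 UMIs per cell these shares turned to 15.4% and 11.1%, with 92 and 80 cells left out as too shallow. Per cell, mature neutrophils held 0.433 Slc40a1 UMIs and immature neutrophils 0.716, the reverse order of the CPM.

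The level of Slc40a1 in Fxyd2 Aqp1 macrophages, 43.0 CPM, rested on 1 cell with 85 of the 86 UMIs, and without it the class was at 0.505 CPM. Cells with many Slc40a1 UMIs were then examined, a choice made after their values were seen. Of the 32953 cells, 20 had at least 10 UMIs of the gene. In 9 of these Spic, a transcription factor known from iron-recycling macrophages, was detected, and in 8 others the neutrophil granule gene Ltf, with no cell holding both. The cells with Spic came from 5 libraries. The top cell held 104 Slc40a1 UMIs with 36 of Spic and 84 of the adhesion molecule gene Vcam1, and none of Ltf or of S100a8.

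Chosen by Spic in place of Slc40a1, 46 cells of 6 libraries had at least 3 Spic UMIs. Since Spic was picked from the cells with many Slc40a1 UMIs, their Slc40a1 level restates that choice: 8 of the cells already described held 408 of the 457 Slc40a1 UMIs. The other 38 held 49 UMIs, or 59.7 CPM. The 46 cells were at 1753 CPM of Hmox1 and 128 CPM of Cd163. Here Spic and Ltf did occur together, with Ltf in 15.2% of the 46 cells. The 8 cells held 483 of the 1718 Hmox1 UMIs, 320 of them in 1 cell, and the other 38 were at 1506 CPM. Migratory dendritic cells gave 3 of the 46 cells and type 2 dendritic cells 1. Outside the dendritic classes and with no Ltf, 35 cells were at 2016 CPM of Hmox1 and 142 CPM of Cd163. Of the 46 cells, 21 had passed several gates and 12 a gate without a class, so they form no class here.

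By CPM, Slc11a1 was highest in monocytes, neutrophils and inflammatory macrophages. Nonclassical monocytes were at 289 CPM (97 cells, interval 251 to 331) with 4 libraries from 241 to 376 CPM, and mature neutrophils at 282 CPM (interval 275 to 289) with libraries at 250, 301 and 378 CPM for the lowest, the median and the highest. The library ranges of these 2 classes overlapped, and without library 6 mature neutrophils came out on top. Cxcl9 inflammatory macrophages were at 242 CPM, inflammatory macrophages at 185 CPM, classical monocytes at 123 CPM and resident Lyve1 macrophages at 85.0 CPM. Neighbors in this order overlapped, while inflammatory macrophages (libraries from 149 to 224 CPM) and resident macrophages (62.9 to 124 CPM) did not. Per cell, mature neutrophils (5931 UMIs in 4198 cells) lay below inflammatory macrophages (2090 in 605) and Cxcl9 inflammatory macrophages (616 in 116). They also lay below nonclassical monocytes (208 in 97) and classical monocytes (4643 in 2475), and above resident macrophages (1490 in 1355).

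Slc11a1 was lower in the other classes. Mast cells held 11.0 CPM (libraries from 0 to 22.9 CPM) and migratory dendritic cells 7.68 CPM (0 to 16.2 CPM). Each of the lymphoid classes held at most 2.53 CPM, plasmacytoid dendritic cells were at 0.910 CPM, type 2 dendritic cells at 4.10 CPM, and fibroblasts had no UMI in 84 cells. Promyelocyte-type precursors, the earliest neutrophil class, were at 1.66 CPM.

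Ferritin mRNA was present in nearly every cell, with Fth1 in 99.0% and Ftl1 in 97.9% of all cells. The annotation holds 5 pseudogenes with names that start with Fth and 2 with Ftl, and their kind and origin were not checked. Reads could be lost or shared between such copies, so the counts of both genes are uncertain in level. Fth1 was highest in Cxcl9 inflammatory macrophages at 13107 CPM (116 cells, interval 12967 to 13249, with 4 libraries from 10484 to 17492 CPM). Mature neutrophils were at 9959 CPM, inflammatory macrophages at 9885 CPM, classical monocytes at 6890 CPM and resident Lyve1 macrophages at 6532 CPM. Pro-B cells were lowest at 783 CPM. The difference between the top and the bottom class was 16.7-fold, and each neighboring pair overlapped in its library ranges. Per cell, mature neutrophils (209614 UMIs in 4198 cells) lay below inflammatory macrophages (111414 in 605), classical monocytes (259431 in 2475) and resident macrophages (114546 in 1355).

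Ftl1 was highest in inflammatory macrophages at 5295 CPM (interval 5252 to 5337), with libraries at 4149, 5687 and 6499 CPM for the lowest, the median and the highest. Cxcl9 inflammatory macrophages had 4404 CPM, resident Lyve1 macrophages 4038 CPM, and type 2 innate lymphoid cells were lowest at 506 CPM. Library 1 was the highest library for Fth1 in 10 of the 16 classes with all 6 libraries and at least 10 CPM, and for Ftl1 in 8 of 16. In classical monocytes Fth1 reached 10759 CPM in library 1, against 4793 to 7691 CPM in the other 5 libraries.

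**Figure D2:**
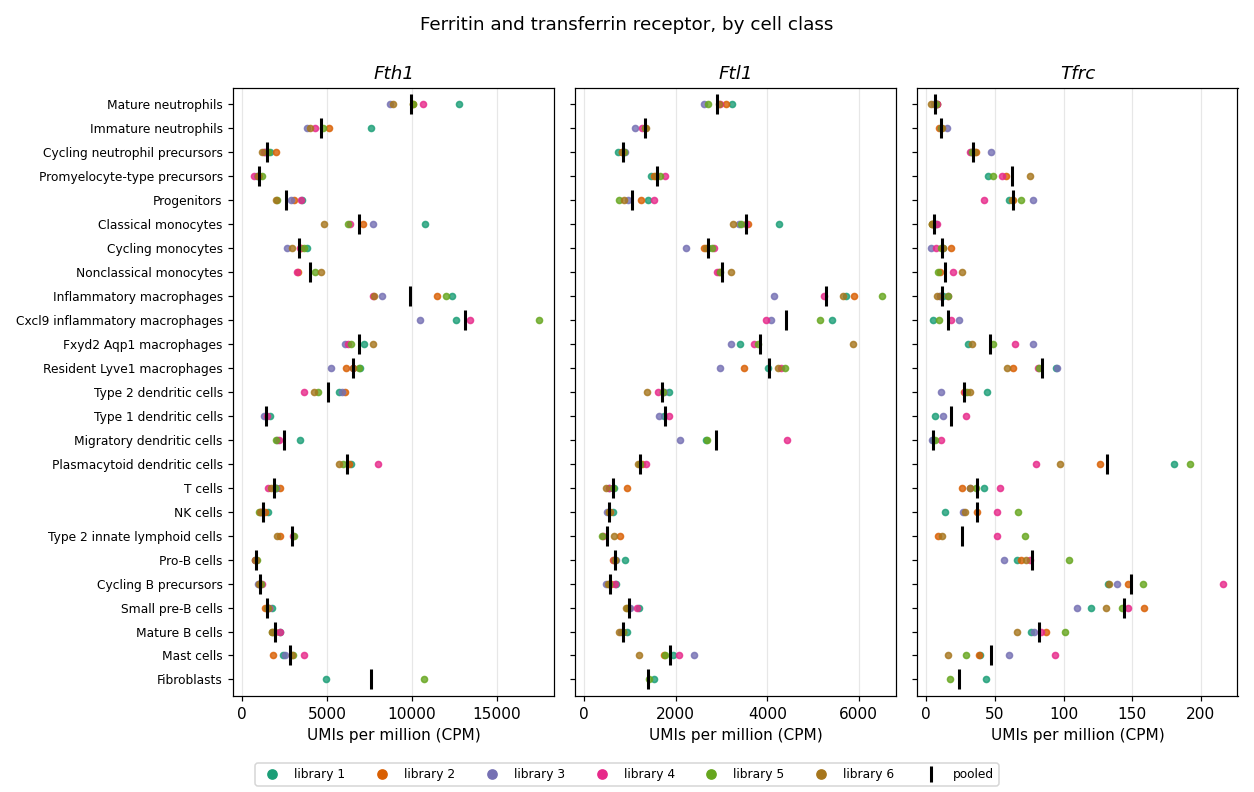
Levels of Fth1, Ftl1 and Tfrc in CPM (x axes, linear) for 25 cell classes (y axis), with 1 point per library of at least 10 cells and a black bar for the pooled level. Fth1 and Ftl1 peak in the inflammatory macrophage classes (13107 and 5295 CPM), and Tfrc in the B precursor classes (149 and 144 CPM), where ferritin is low.

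The 2 ferritin chains were not expressed in a fixed proportion. The ratio of Fth1 to Ftl1 UMIs is compared between classes only, since the genes may differ in reads lost to pseudogenes. It was 3.54 in immature neutrophils (libraries from 2.98 to 5.68) and 3.43 in mature neutrophils (3.03 to 3.95), 2.98 in T cells, 1.94 in classical monocytes and 1.62 in resident Lyve1 macrophages (1.52 to 1.77). Plasmacytoid dendritic cells had 5.04, against 0.806 in type 1 dendritic cells and 0.844 in migratory dendritic cells. Promyelocyte-type precursors were lowest at 0.611, with libraries from 0.404 to 0.698. The library ranges of mature neutrophils and resident macrophages did not overlap, nor did those of plasmacytoid and type 1 dendritic cells.

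**Figure D3:**
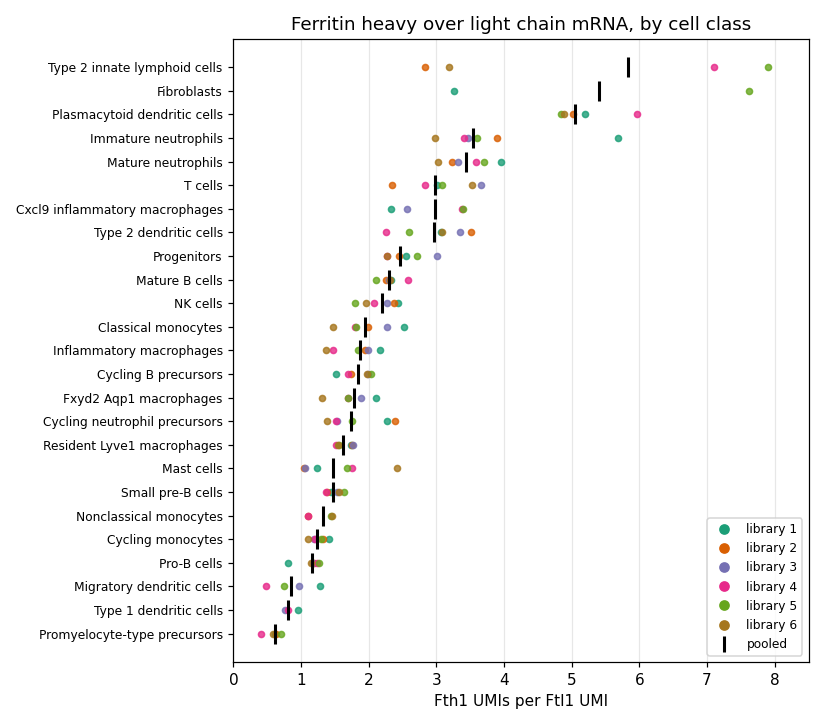
Fth1 UMIs per Ftl1 UMI (x axis, linear) for 25 cell classes ordered by the pooled ratio (y axis), with 1 point per library of at least 10 cells and a black bar for the pooled ratio. The ratio runs from 0.611 in promyelocyte-type precursors to 5.83 in type 2 innate lymphoid cells, with immature and mature neutrophils at 3.54 and 3.43 and resident macrophages at 1.62.

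Tfrc was high in precursor and B lineage cells and low in neutrophils and monocytes. Cycling B precursors were at 149 CPM (interval 141 to 157), with libraries at 132, 143 and 216 CPM for the lowest, the median and the highest. Small pre-B cells were at 144 CPM, plasmacytoid dendritic cells at 131 CPM, resident Lyve1 macrophages at 84.5 CPM (libraries from 58.6 to 95.4), mature B cells at 82.2 CPM and Pro-B cells at 76.8 CPM. Neighbors in this order overlapped. Classical monocytes (5.39 CPM), mature neutrophils (6.22 CPM), immature neutrophils (10.8 CPM) and inflammatory macrophages (11.4 CPM) were among the lowest. Per cell, small pre-B cells (978 UMIs in 1300 cells) lay below resident macrophages (1482 in 1355), while cycling B precursors (1301 in 497) lay above both. The 24 cells gated as erythroid, too few for the comparison, held 505 CPM (interval 444 to 573), above each of the 25 classes. Hemoglobin mRNA outside erythroid cells ranged from 0.383 to 134 CPM in the libraries, and its part in the levels was not tested.

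Cycling cells, gated on at least 3 of Mki67, Top2a, Birc5, Ube2c, Cdk1 and Ccnb2, were set beside noncycling cells of the same lineage. Among neutrophils Tfrc was at 34.2 CPM in cycling precursors and 10.8 CPM in immature noncycling cells, higher in 6 of 6 libraries. The cycling neutrophil class had no granule mRNA requirement and is also a stage of the neutrophil series below. For each gene, cycling and stage therefore cannot be told apart in neutrophils. In T cells it was at 60.7 CPM in 91 cycling and 31.6 CPM in 1003 noncycling cells, higher in 5 of 5 libraries. In monocytes the values were 11.6 and 5.39 CPM, higher in 4 of 6 libraries. Among progenitors the order was the other way, with 51.3 CPM in 68 cycling and 68.5 CPM in 231 noncycling cells and no library of 3 higher in cycling cells, while per cell the values were 1.37 and 1.26 UMIs.

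Fth1 was lower in cycling cells than in noncycling cells of the B precursors, monocytes and neutrophils in 6 of 6 libraries each, with 1031 against 1228 CPM, 3314 against 6890 CPM and 1450 against 4654 CPM. Cycling cells were deeper in each of these lineages (medians of 14802, 21782 and 26562 UMIs per cell in the same order). Per cell, Fth1 was lower in cycling monocytes (74.6 against 105 UMIs) and neutrophils (41.4 against 58.4 UMIs), but higher in cycling B precursors (18.1 against 7.10 UMIs). The noncycling B precursors pool Pro-B cells at 783 CPM and small pre-B cells at 1449 CPM, and the cycling cells lay between these levels. Cycling and stage therefore cannot be told apart in B precursors either.

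Neutrophils were divided by granule mRNA, with at least 3 of Ngp, Camp, Ltf and Cebpe in immature cells and at most 1 in mature cells. Over the neutrophil classes, from promyelocyte-type through cycling and immature to mature cells, the genes moved in different directions. Slc11a1 went from 1.66 to 19.5, 67.9 and 282 CPM, rising at each step in all 5 libraries that could be followed. Fth1 went from 977 to 1450, 4654 and 9959 CPM, also rising at each step in 5 of 5 libraries. Tfrc went from 62.1 to 34.2, 10.8 and 6.22 CPM and fell at each step in 5 of 5 libraries. Ftl1 fell from 1599 to 836 CPM and then rose to 1316 and 2903 CPM.

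The RNA content of the cells fell along this series, with medians of 34714, 26562, 10983 and 4548 UMIs per cell, so the levels are also given per cell. Per cell, Fth1 was at 34.5, 41.4, 58.4 and 49.9 UMIs and Ftl1 at 56.4, 23.9, 16.5 and 14.6 UMIs. Slc11a1 rose per cell as well, from 0.0585 to 0.558, 0.851 and 1.41 UMIs. Slc40a1 went from 40.5 to 86.4 CPM over the series but from 1.43 to 0.433 UMIs per cell.

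**Figure D4:**
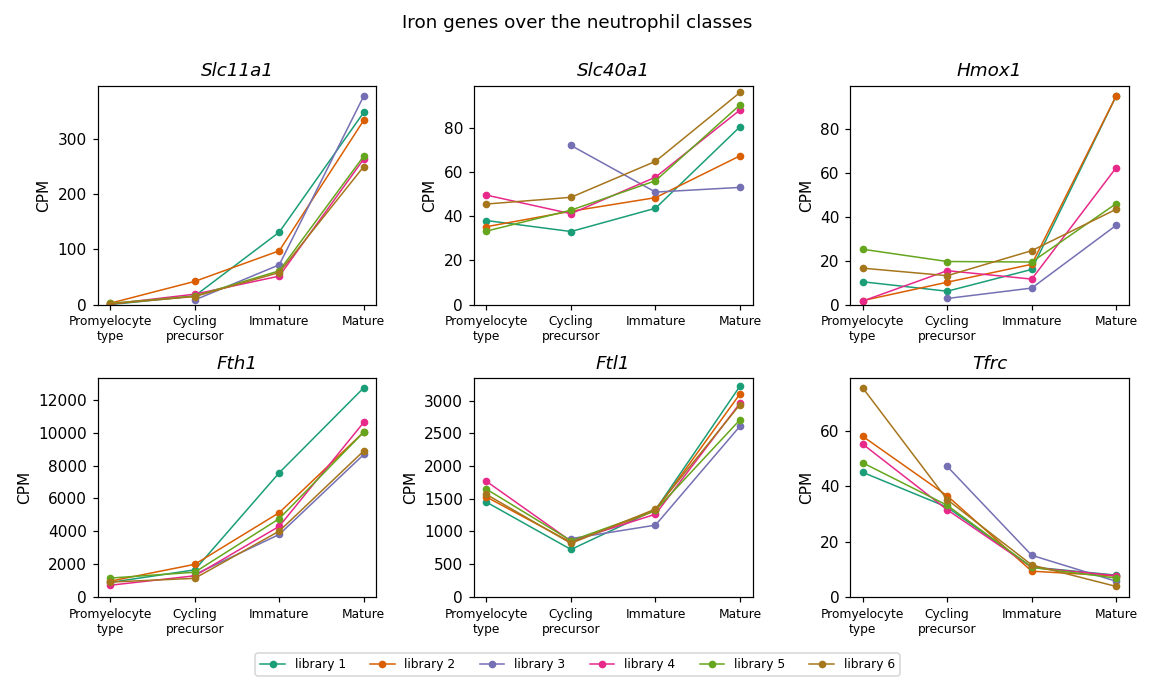
Levels of Slc11a1, Slc40a1, Hmox1, Fth1, Ftl1 and Tfrc in CPM (y axes, linear, from 0) over 4 neutrophil-lineage classes (x axes), with 1 line per library and no point where a library had under 10 cells. Slc11a1 and Fth1 rise at each step and Tfrc falls at each step in the 5 complete libraries, while Ftl1 is lowest in cycling precursors at 836 CPM.

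Over the B lineage, from Pro-B cells through cycling precursors and small pre-B cells to mature B cells, Fth1 went from 783 to 1031, 1449 and 1945 CPM and rose at each step in 6 of 6 libraries. Per cell it did not rise at each step, with 5.81, 18.1, 7.55 and 12.3 UMIs, the highest in the cycling precursors, which had the most RNA. Tfrc went from 76.8 to 149, 144 and 82.2 CPM, or 0.570, 2.62, 0.752 and 0.519 UMIs per cell.

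Pairs of classes were then compared over all genes, with a gene called where the pooled levels differed at least 2-fold and the library ranges did not overlap, among genes with at least 10 CPM in either class. Resident Lyve1 macrophages against classical monocytes gave 3 of the 6 genes tested as higher: Cd163 (483 against 1.30 CPM), Tfrc (84.5 against 5.39 CPM, 15.7-fold) and Hmox1 (644 against 130 CPM, 4.96-fold). None was lower. Of all 8433 genes tested, 17.1% were called higher and 8.99% lower. Fth1 (6532 against 6890 CPM), Ftl1 (4038 against 3546 CPM) and Slc11a1 (85.0 against 123 CPM) were not called. Slc40a1, under the minimum level, was at 5.82 against 0.584 CPM.

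The same resident cells against inflammatory macrophages, a comparison that shares them with the former, gave the same 3 genes as higher and Slc11a1 as lower (85.0 against 185 CPM, 2.18-fold). Over all 8318 genes the shares were 11.2% higher and 5.19% lower. Hmox1 was at 644 against 162 CPM, and the call rested on a narrow gap, with the lowest resident library at 288 CPM and the highest inflammatory library at 262 CPM. With 1 more marker required in most gates, those of resident and inflammatory markers included, Hmox1 was no longer called. Fth1 was at 9885 CPM in inflammatory and 6532 CPM in resident macrophages, 1.51-fold, with library ranges apart.

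Mature against immature neutrophils gave 4 of 6 genes as higher: Slc11a1 (4.15-fold), Hmox1 (2.98-fold), Ftl1 (2.21-fold) and Fth1 (2.14-fold). Per cell the direction of both ferritin genes turned, with 49.9 against 58.4 UMIs of Fth1 and 14.6 against 16.5 UMIs of Ftl1. Hmox1 had 1218 UMIs in 4198 mature and 1069 UMIs in 4386 immature cells, a smaller difference per cell than in CPM. A single mature cell held 90 of the 1218 UMIs. No gene of the 6 was called lower, and over all 5592 genes 16.0% were higher and 9.08% lower. Slc40a1 (1.51-fold) and Tfrc (6.22 against 10.8 CPM) were not called. At 2000 UMIs per cell Slc11a1 was detected in 33.0% of mature and 11.8% of immature neutrophils, and Hmox1 in 8.78% and 3.57%. Cycling against noncycling B precursors (Pro-B cells and small pre-B cells together) gave no call among 3 genes tested, against 11.6% higher and 9.30% lower of 8725 genes. Tfrc was 1.22-fold higher in the cycling cells, with 149 against 122 CPM, and higher in 6 of 6 libraries. Of the pooled noncycling cells, Pro-B cells were at 76.8 CPM. Small pre-B cells were at 144 CPM, with a library range that overlapped that of the cycling cells. Ftl1 was at 562 against 883 CPM. Per cell, Tfrc was at 2.62 against 0.705 UMIs, and the direction of Ftl1 turned, with 9.87 against 5.11 UMIs.

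Other genes of iron and heme metabolism were taken from a list of 61 genes, of which 58 were in the table. In resident macrophages against classical monocytes 11 of 38 tested list genes were higher and 5 lower, with a median log2 ratio of 0.19 against 0.16 over all tested genes. The higher ones were led by Maf, a macrophage transcription factor (747 against 71.2 CPM), Cp, the ferroxidase ceruloplasmin (12.7 against 1.49 CPM), Slc11a2, the endosomal iron transporter DMT1 (71.1 against 12.2 CPM), Abcg2, a porphyrin exporter (11.3 against 2.23 CPM), and Gclc, an enzyme of glutathione synthesis (125 against 33.3 CPM). Lower were Hp, which encodes haptoglobin (19.0 against 751 CPM), the siderophore-binding Lcn2 (3.02 against 24.9 CPM), the cystine transporter Slc7a11 (16.8 against 61.6 CPM), Fbxl5, an iron sensor that marks iron regulatory proteins for degradation (61.4 against 173 CPM), and Hif1a (184 against 378 CPM). Blvrb, a biliverdin reductase named after its values were seen, was at 218 against 67.6 CPM.

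Against inflammatory macrophages 3 of 38 list genes were higher in resident cells and 3 lower, with medians of 0.12 for the list and 0.08 for all genes on the log2 scale. Abcg2 (3.54-fold), Maf (3.21-fold) and Gclc (2.66-fold) were higher. Hp (5.82-fold), Slc7a11 (5.45-fold) and Hif1a (2.52-fold) were lower.

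In mature against immature neutrophils 8 of 29 list genes were higher and 2 lower, with median log2 ratios of 0.46 for the list and 0.16 for all tested genes. The metalloreductase gene Steap4 was at 85.2 against 6.53 CPM, Srxn1, a peroxiredoxin repair enzyme, at 55.5 against 7.96 CPM, Hif1a at 567 against 164 CPM, Nfe2l2, the oxidative stress regulator, at 492 against 154 CPM and Slc7a11 at 1716 against 603 CPM. The iron-binding granule genes Ltf and Lcn2 were lower, and Ltf had been used in the gate. These are CPM, and mature neutrophils held less RNA (medians of 4548 against 10983 UMIs per cell). The differences of the higher list genes are therefore smaller per cell or can turn in direction, as for the ferritin genes. Their levels per cell are not given.

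In cycling against noncycling B precursors 6 of 32 list genes were higher and 2 lower, with medians of 0.07 for the list and -0.11 for all tested genes on the log2 scale. The higher genes included the glutathione synthesis gene Gclm (37.1 against 11.0 CPM), the heme synthesis gene Alad (28.6 against 9.17 CPM) and the biliverdin reductase gene Blvra (16.8 against 6.41 CPM). Steap4 (3.44 against 42.5 CPM) and Maf (36.9 against 105 CPM) were lower. The noncycling level of Maf pools 206 CPM in Pro-B cells and 55.2 CPM in small pre-B cells, and that of Steap4 38.0 and 44.7 CPM. Cycling cells held more RNA (medians of 14802 against 5245.5 UMIs per cell), so a gene lower by CPM need not be lower per cell. Levels per cell are not given for these list genes.

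For each gene the 3 most alike by Pearson r of log2(CPM + 1) over the 25 classes were sought among 10761 genes with at least 20 CPM in a class that were neither gate markers nor among the 7, as a description over classes that share libraries. Cd163 was most like Fcna (r = 0.90), Hrh1 (0.83) and Lyz1 (0.81), and Hmox1 most like Adam15 (0.90), Abca9 (0.88) and Lamp2 (0.88). Slc40a1 was most like Tnfsf13b (0.88), Mgam (0.86) and G0s2 (0.84), and Slc11a1 most like Tlr13 (0.95), Ccl6 (0.94) and Cd300ld (0.94). The values for Slc40a1 take in the level of Fxyd2 Aqp1 macrophages, 43.0 CPM, which rested on 1 cell. Fth1 went with Fam76a (0.88), Tlcd2 (0.87) and Ppard (0.86), and Ftl1 with Cd68 (0.89), Asah1 (0.89) and Pisd (0.89). Tfrc went with Rbm15b (0.85), Btbd8 (0.85) and Fam65a (0.83). Among the 7 genes themselves, Hmox1 and Ftl1 were the most alike pair (r = 0.83) and Slc11a1 and Tfrc the least (r = -0.60).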

How the data were processed

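The authors aligned reads to mm10 with Cell Ranger 7, removed ambient RNA with SoupX and doublets with DoubletFinder, filtered cells with Seurat, and deposited UMI counts as 1 sparse matrix, with no depth scaling. The deposited gene and barcode lists name rows and columns only. The matrix stores 1724738 entries written as 0, which were counted as 0, and whether the deposited counts are those after the ambient RNA step is not given in the sources used here, which bears on any background level. No doublet caller was run again, and cells that passed gates of several lineages were kept out of the classes.

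Classes came from marker gates, where numbers of required markers were set after the markers, not the 7 genes, had been looked at. Of all cells, 878 held exactly the 4 neutrophil markers required and 726 were 1 short. Levels are CPM of pooled UMIs. Thinned shares are the exact mean chance that a cell reduced to 2000 or 5000 UMIs keeps a UMI. With 0 UMIs, up to 3 counts are allowed. The named genes are the 7, list genes called with at least 10 CPM (at most 5 per direction, by fold) and the 3 most alike genes. Some called list genes are not reported here. The 7 genes and all lists were chosen with earlier results of these data known. Calls and thinning were tested on simulated data. The libraries simulated for the calls differed by counting error only, so the spread between real libraries was not covered. Python 3.11.15, numpy 2.4.6, scipy 1.17.1, pandas 2.3.3, scanpy 1.11.5, igraph 0.11.9 and matplotlib 3.10.9 were used. Alternatives were other gates, Leiden clusters without the 7 genes (resolution 1), other averages, thresholds and depths, and leaving out each library.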

Additional observations from a re-analysis of the deposited data

How the results depend on the processing

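Levels are those in the highest class of each gene. As the median over libraries Hmox1 was 601 CPM and Ftl1 5687 CPM, and as the mean over cells Hmox1 was 705, Slc40a1 96.1, Ftl1 5227 and Cd163 540.2 CPM. With 1 more marker required Slc40a1 was 75.8, Fth1 13956 and Ftl1 5116 CPM. The requirements on granule, cycling, B precursor and Cxcl9 genes and on single genes such as Lyve1 were not raised. In Leiden clusters made without the 7 genes Ftl1 was 5638, Tfrc 169 and Cd163 373 CPM, while nonclassical monocytes and Cxcl9 inflammatory macrophages had no cluster, so that Slc11a1 and Fth1 gave no value there. Leaving out each library in turn, Hmox1 was 604 to 686, Slc40a1 82.5 to 89.3, Slc11a1 275 to 299, Fth1 12244 to 13954, Ftl1 5154 to 5732, Tfrc 145 to 153 and Cd163 468 to 501 CPM. Thinned to 2000 UMIs, the share of cells in the highest class was 43.2% for Hmox1, 15.4% for Slc40a1, 41.4% for Slc11a1, 24.6% for Tfrc and 43.3% for Cd163, and to 5000 UMIs 62.8% for Hmox1, 25.6% for Slc40a1, 47.1% for Tfrc, 54.3% for Cd163 and 100.0% for Ftl1. Thinning keeps fewer UMIs and leaves out the cells that are too shallow.

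At 1.5-fold of the CPM, 2 genes were lower in resident than in inflammatory macrophages (Slc11a1 and Fth1), 1 lower in mature neutrophils (Tfrc) and 1 lower in cycling B precursors (Ftl1). With at least 1 CPM, Slc40a1 joined the genes higher in resident macrophages than in monocytes, as the fourth. Leaving out any library left the counts of called genes as they were, at 3 and 0 for resident macrophages against monocytes, 3 and 1 against inflammatory macrophages, 4 and 0 for neutrophils, and 0 and 0 for B precursors. The level of Slc40a1 in Fxyd2 Aqp1 macrophages fell to 0.505 CPM without 1 cell, an alternative chosen after seeing the data. No cell could be tied to a labelled sample. The calls compared library ranges and did not pair the classes by library. Only the counts of libraries with a higher, lower, rising or falling level compared cells within each library. Counts of a few UMIs limit the lymphoid values.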
